A study of Mus musculus with 15 samples.

Results

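Mature microRNA (miRNA) names from hairpins within introns of metabolic genes were followed across 15 mouse libraries. They are mmu-miR-33-5p and mmu-miR-33-3p from Srebf2, mmu-miR-378a-3p and mmu-miR-378a-5p from Ppargc1b, and mmu-miR-103-3p and mmu-miR-107-3p from the Pank genes, written without the species prefix from here on. The 6 names were chosen by name and host gene, all had reads in all 15 libraries, and they are 6 of 1558 mature names counted. Together they held 518223 of 29911481 reads, from 0.886% of a library's reads in spleen to 4.14% in heart.

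The study made small RNA libraries by AQ-seq, a protocol with randomized adapters that lowers ligation bias, from a commercial panel of mouse total RNA, with 1 library per tissue or stage. The nervous class held brain, eye and spinal cord (n = 3), the embryo class held the 11-, 15- and 17-day whole embryos (n = 3), and the other adult class held heart, kidney, liver, lung, salivary gland, smooth muscle, spleen, stomach and testis (n = 9). No library carried a labelled treatment or genetic change, and no strain, sex, adult age or number of pooled animals is given in the sources used here. The library titled 17-day embryo carries the 15-day stage in another label, and the title was used. With no replicate of any tissue, errors on a class are the spread between its tissues, which may be in part technical, and errors on a library cover counting only.

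Totals ran from 148052 reads in testis to 3161463 in brain, with 922137 in stomach as the next lowest after testis. In testis 3 reads amount to 20.3 counts per 1000000 reads (CPM). Markers of nervous tissue, liver, striated muscle, leukocytes and testis were highest in brain, liver, heart, spleen and testis, whereas smooth muscle and kidney did not rank first for theirs. In the smooth muscle library the 4 smooth muscle markers summed to 15.7% of reads against 26.8% in stomach, and the 3 gut and kidney epithelium markers to 27.9%, against 4.22% in liver and 2.34% in kidney. Results that involve class comparisons were therefore also computed without testis and smooth muscle.

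An intronic miRNA is cut from a host gene's transcript as a hairpin, whose 5' and 3' arms (5p and 3p) can each be loaded into an Argonaute protein, where bases 2 to 8, the seed, direct target choice. Srebf2 encodes the transcription factor that drives cholesterol synthesis and uptake, and miR-33-5p represses the cholesterol exporter Abca1. Ppargc1b encodes a coactivator of mitochondrial genes, and both arms of miR-378a have been linked to fat oxidation and energy use. The Pank genes encode pantothenate kinases, which start coenzyme A synthesis, and miR-103 and miR-107 have been linked to insulin sensitivity in liver and fat.

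The mature sequences of miR-33, miR-103 and miR-107, shown because they set which members share a seed and which reads can be told apart, are from RefSeq on GRCm38.p6, with the seed in capitals.
miR-33-5p: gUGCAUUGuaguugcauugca
miR-33-3p: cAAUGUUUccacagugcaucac
miR-103-3p: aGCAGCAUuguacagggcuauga
miR-107-3p: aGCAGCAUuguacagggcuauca
miR-103-3p and miR-107-3p carry the seed GCAGCAU and differ by the single substitution G22C, counted from 1 at the 5' end of miR-103-3p, in a length of 23 bases. In the RefSeq table no further name had that seed, and each arm of miR-33 had a seed that no other name there had. The base that separates miR-103-3p from miR-107-3p lies next to the 3' end, so their separate counts rest on the last bases of each read.

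The other arms of the same loci are shown because miR-103-3p is identical from both of its genes, and only the 5p arm can tell them apart.
miR-103-1-5p: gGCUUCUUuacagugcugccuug
miR-103-2-5p: aGCUUCUUuacagugcugccuug
miR-107-5p: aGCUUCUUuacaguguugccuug
The substitution between miR-103-1-5p and miR-103-2-5p was G1A, and that between miR-103-2-5p and miR-107-5p was C16U. The hairpin of miR-33, with the 5p and the 3p arm in capitals, shows the pair whose ratio is described below.
Mir33: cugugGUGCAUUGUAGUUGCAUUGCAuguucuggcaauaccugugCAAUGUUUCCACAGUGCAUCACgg

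All 5 hairpins lay on their host's strand and overlapped no host exon in the GENCODE M21 annotation of GRCm38. Mir33 lay at chr15:82198122-82198190 on the plus strand in intron 16 of 18 of Srebf2-201. Mir378a lay in intron 1 of 11 of Ppargc1b-202. The remaining 3 all lay in intron 5 of 6 of a Pank gene. Mir103-1 was at chr11:35782396-35782481 on the plus strand in Pank3, Mir103-2 at chr2:131288052-131288137 on the plus strand in Pank2, and Mir107 at chr19:34820687-34820773 on the minus strand in Pank1.

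Levels are given in CPM scaled by the trimmed mean of M-values (TMM). The scaling factors ran from 0.449 in heart to 2.25 in the 11-day embryo, so levels by plain library totals are given where the order changes. In bulk RNA, fewer cells of a type and less RNA per cell cannot be told apart.

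miR-33-5p, which represses Abca1, was highest in spleen, at 1471 CPM (95% Poisson interval 1414 to 1529, 2526 reads). Lung followed at 829 CPM, salivary gland at 543 CPM, the 17-day embryo at 491 CPM and the 15-day embryo at 458 CPM. Liver, where miR-33 acts on cholesterol export, ranked sixth at 449 CPM. Stomach, smooth muscle and kidney held 368, 319 and 259 CPM, and the 11-day embryo 160 CPM. The nervous tissues were close to each other, at 132 CPM in brain, 127 CPM in eye and 108 CPM in spinal cord. Heart (62.9 CPM, 74 reads) and testis (30.7 CPM, 7 reads) were lowest. The intervals of spleen, lung and salivary gland did not overlap, and 9 of the 14 neighbouring pairs in the order did. By plain totals spleen stayed first at 1137 CPM, and the 17- and 15-day embryos came next at 1040 and 879 CPM. The 4 leukocyte markers summed to 26.0% of reads in spleen, 4.31% in salivary gland and 3.59% in lung, against 0.129% to 1.85% elsewhere. The 3 erythroid (red blood cell) markers summed to 12.6% in lung, 10.5% in spleen, 9.63% in the 17-day and 7.26% in the 15-day embryo. Salivary gland held 2.47% of these, and heart, low in miR-33-5p, held 4.72%. The part of either marker set in the miR-33-5p level was not tested.

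miR-33-3p, the less abundant arm, ran from 64.2 CPM in liver (56 reads) to 8.77 CPM in testis (2 reads), with a median of 29.7 CPM. Spinal cord, spleen, salivary gland and lung held 48.0, 47.7, 44.6 and 44.2 CPM. The 3 embryos held 16.9 (11-day), 16.3 (15-day) and 19.1 CPM (17-day). All 14 neighbouring pairs overlapped in their counting intervals, so the order is not resolved step by step. By plain totals spinal cord was highest at 65.0 CPM and heart lowest at 11.1 CPM, and the embryos then held 37.9, 31.4 and 40.4 CPM.

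miR-378a-3p was 79594.5 CPM in heart (93712 reads), far above stomach at 18716 CPM, smooth muscle at 15161 CPM and kidney at 11446 CPM. Liver held 8504 CPM, salivary gland 8004 CPM and eye 7068 CPM. Spleen and lung held 2310 and 2165 CPM, brain 860 CPM, spinal cord 444 CPM and testis 386 CPM (88 reads). The 11-, 15- and 17-day embryos held 676, 1624 and 3378 CPM, with 1 library per stage and no test between stages. Only spinal cord and testis, of the 14 neighbouring pairs, overlapped in their intervals. Striated muscle markers moved with this order in part. The 5 markers summed to 30.1% of reads in heart, 3.60% in eye, and 2.33%, 2.24% and 0.405% in the 17-, 15- and 11-day embryos. Against the order, they summed to 0.532% in stomach, 0.228% in smooth muscle and 0.0665% in kidney, ranks 2, 3 and 4 for miR-378a-3p. Lung, rank 10, held 0.736%. The part of these markers in the levels was not tested.

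miR-378a-5p ranked the libraries almost alike at a lower level, with smooth muscle above stomach and eye above salivary gland, from 4440 CPM in heart to 13.2 CPM in testis (3 reads). Smooth muscle held 968 CPM, stomach 929 CPM, kidney 687 CPM and liver 686 CPM. Eye at 574 CPM stood apart from brain at 73.9 CPM and spinal cord at 33.7 CPM. The embryos held 50.4, 93.9 and 214 CPM at 11, 15 and 17 days. Across the 15 libraries the log2 levels of both arms had a Pearson r of 0.989 and a Spearman rho of 0.993, which is a description of values that share a library and its depth. With plain totals heart stayed highest for both arms, at 35735 CPM for 3p and 1993 CPM for 5p. Stomach came next for both, at 15817 and 785 CPM, so the gap was narrower than by TMM. For miR-378a-3p kidney (12525 CPM) then passed smooth muscle (8645 CPM), and the 17-day embryo moved from rank 8 to rank 5 at 7150 CPM, above salivary gland, eye and liver. The 11- and 15-day embryos held 1517 and 3119 CPM on that scale.

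miR-103-3p varied little. It ran from 3881 CPM in the 17-day embryo to 14874.5 CPM in smooth muscle, a 3.83-fold range, with a median of 6952 CPM. Brain held 9387 CPM, kidney 9056 CPM, spinal cord 8434 CPM, stomach 8074 CPM and lung 7798 CPM. Testis, liver, eye, heart, spleen and salivary gland held 7167, 6952, 6700, 5807, 5657 and 4679 CPM, and the 11- and 15-day embryos 5429 and 4098 CPM. By plain totals the 11-day embryo was highest at 12175 CPM and heart lowest at 2607 CPM, and smooth muscle ranked 6 at 8482 CPM. The places of the embryos and of smooth muscle thus depend on the scaling.

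miR-107-3p was highest in kidney, at 5633 CPM, and next in liver, at 3807 CPM. Smooth muscle held 3232 CPM, brain 3083 CPM and spinal cord 2366 CPM, followed by stomach at 2357 CPM, testis at 2336 CPM, heart at 2205 CPM and lung at 2166 CPM. Eye, salivary gland and spleen held 1918, 1822 and 1814 CPM. The 3 embryos were lowest, at 902, 898 and 748 CPM for 11, 17 and 15 days. By plain totals kidney stayed first at 6164 CPM, testis came second at 3600 CPM, and liver moved to rank 7 at 1914 CPM. Heart was then lowest at 990 CPM, and the embryos lay at 1437 to 2022 CPM among the adult tissues.

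**Figure D1:**
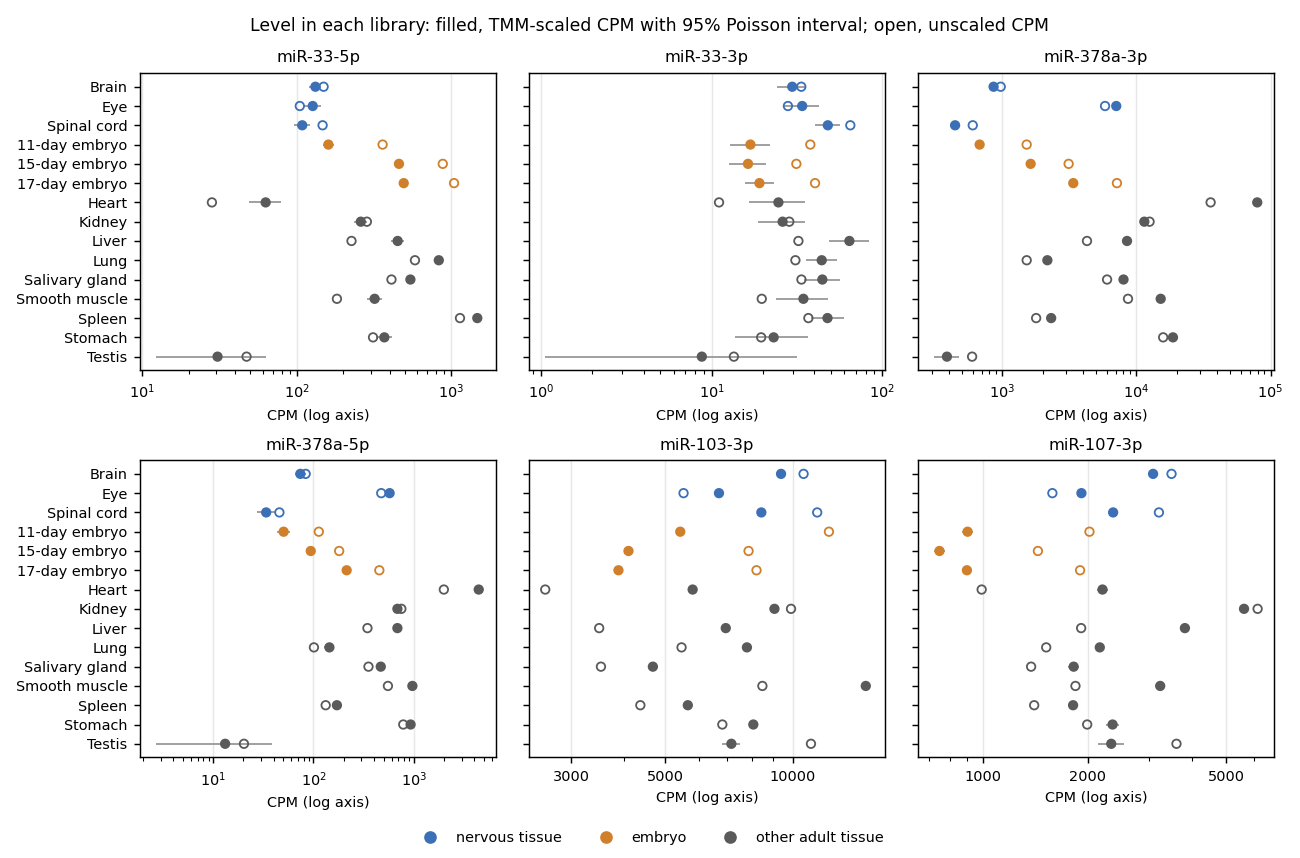
CPM of each of the 6 miRNAs in the 15 libraries on log axes, with filled points for TMM-scaled values coloured by class, bars for 95% Poisson intervals and open points for plain totals. miR-378a-3p and miR-378a-5p peak in heart (79594.5 and 4440 CPM), miR-33-5p in spleen (1471 CPM) and miR-107-3p in kidney (5633 CPM), while miR-103-3p spans a 3.83-fold range.

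The spread of the log2 level over the 15 libraries set the members apart from each other. The SD was 2.21 for miR-378a-3p, 2.20 for miR-378a-5p, 1.47 for miR-33-5p, 0.79 for miR-107-3p, 0.73 for miR-33-3p and 0.51 for miR-103-3p. The median over the 693 names that passed the low-count filter was 1.61. By plain totals the SD was 1.76 for miR-378a-3p and 1.74 for miR-378a-5p, just under a median of 1.78. That of miR-33-5p was then 1.53. The place of the miR-378a arms above the median thus depends on the scaling. miR-103-3p had the seventh lowest SD of the 693 names, a rank that moved to 45 by plain totals, where its SD was 0.71. miR-33-3p ranked 31 by TMM and 24 by plain totals, and miR-107-3p 52 and 39. The levels of miR-103-3p and miR-107-3p had an r of 0.77 and a rho of 0.87, and those of both miR-33 arms an r of 0.52 and a rho of 0.31. Without heart and testis, the libraries farthest from the miR-33-5p median, the miR-33 value was 0.22.

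The share of each arm within a hairpin does not depend on the scaling. For mir-33 the 5p arm was the major arm in all 15 libraries, with a median share of 90.5%. It was highest in spleen (96.9%, exact Clopper-Pearson 95% interval 96.1 to 97.5), the 15-day embryo (96.6%) and the 17-day embryo (96.3%). Lung, stomach, salivary gland, kidney, the 11-day embryo and smooth muscle lay between 94.9% and 90.2%, and liver at 87.5%. The 3p arm took its largest shares in spinal cord, where the 5p share was 69.3% (64.8 to 73.6, 440 reads), and in heart, with 71.8% (62.1 to 80.3, 103 reads). Eye and brain lay at 78.9% and 81.6%. Testis had 9 mir-33 reads, and its 77.8% had an interval of 40.0 to 97.2.

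By class, the mir-33 5p share was 76.6% ± 6.5 in nervous tissue (SD, n = 3), 94.4% ± 3.4 in embryos (SD, n = 3) and 88.5% ± 8.4 in other adult tissue (SD, n = 9). All 3 nervous libraries lay below 7 of the 9 other adult libraries, and heart and testis lay within the nervous range. The arm fit of edgeR, an interaction of arm and class over 238 hairpins, gave a log2 odds of 5p to 3p of -1.73 ± 0.47 (SE) in nervous against other adult tissue, with a Benjamini-Hochberg adjusted p of 0.027. Of all hairpins, 4.62% were called in that direction and 5.88% in either. The call was lost without brain (adjusted p 0.053), eye (0.072), spinal cord (0.19) or lung (0.060), and in limma on log2 ratios (-1.48, adjusted p 0.22). In embryos the log2 odds were 0.81 ± 0.48 (adjusted p 0.25 in edgeR), where 19.7% of hairpins were called in either direction. Both comparisons use the same 9 other adult libraries.

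The levels of both arms stand behind these shares. By TMM, miR-33-5p averaged 122 ± 12.3 CPM in nervous and 481 ± 443 CPM in other adult tissue (SD, n = 3 and n = 9). In the same order miR-33-3p averaged 37.2 ± 9.6 and 35.3 ± 16.6 CPM. By plain totals the nervous log2 difference was -1.42 for miR-33-5p and 0.72 for miR-33-3p (edgeR adjusted p 0.21 for each). The near-equal miR-33-3p means thus depend on the scaling. Liver and spinal cord, the 2 highest in miR-33-3p by TMM, held 449 and 108 CPM of miR-33-5p. By plain totals liver held 32.3 CPM and spinal cord 65.0 CPM of miR-33-3p, with miR-33-5p at 226 and 147 CPM. Among the 219 hairpins that had 20 or more reads in 10 or more libraries, the range of the mir-33 share ranked 24 with 27.5 percentage points between its highest and lowest of 14 libraries, against a median of 5.89 points.

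**Figure D2:**
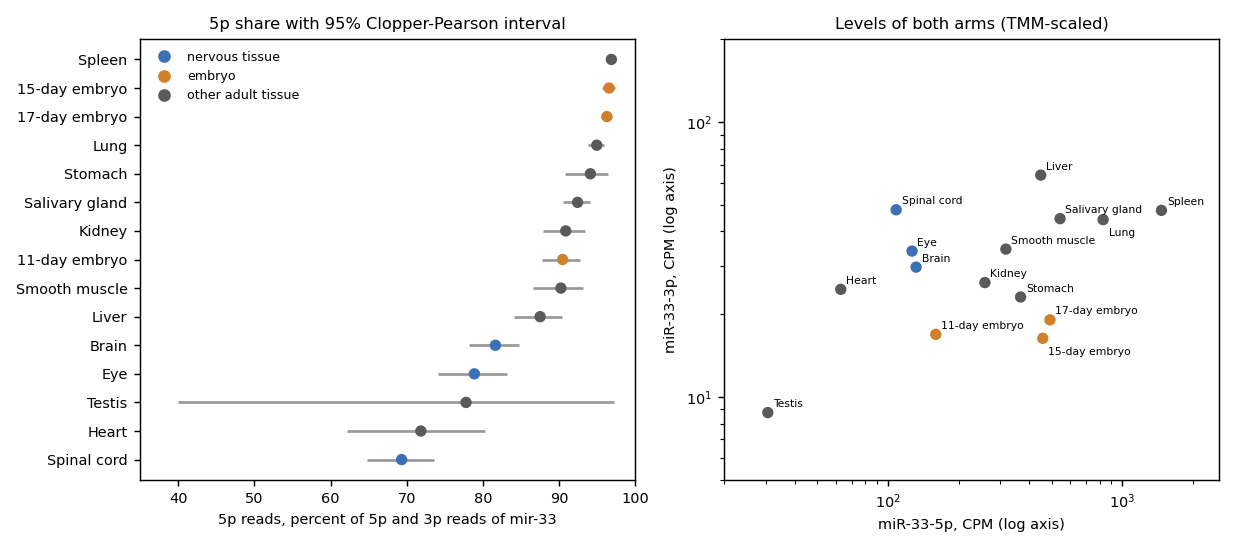
Left, the mir-33 5p share in percent of 5p and 3p reads for each library, with 95% Clopper-Pearson intervals; right, miR-33-3p against miR-33-5p in TMM-scaled CPM on log axes. Spinal cord (69.3%) and heart (71.8%) have the lowest shares and spleen (96.9%) the highest, and miR-33-5p spans 30.7 to 1471 CPM while miR-33-3p spans 8.77 to 64.2 CPM.

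For mir-378a the 3p arm was the major arm in every library, and the 5p share stayed between 3.30% and 7.92%, with a median of 6.0%. Brain (7.92%), eye (7.51%), liver (7.47%) and spinal cord (7.07%) held the highest 5p shares. The lowest were stomach (4.73%) and testis, where 3 of 91 reads gave 3.30% with an interval of 0.69 to 9.33. Heart, with 98939 mir-378a reads, had a 5p share of 5.28% (5.14 to 5.42), so its high level came with an arm ratio inside the range of the other tissues. The embryos lay at 6.93%, 5.46% and 5.96% for 11, 15 and 17 days.

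The class means of the mir-378a 5p share were 7.50% ± 0.42 in nervous tissue (SD, n = 3), 6.12% ± 0.75 in embryos (SD, n = 3) and 5.68% ± 1.22 in other adult tissue (SD, n = 9). The log2 odds of 5p to 3p were 0.40 ± 0.25 for nervous (adjusted p 0.39 in edgeR) and 0.07 ± 0.25 for embryo (adjusted p 0.87), so neither passed the threshold. The SD of the log2 arm ratio over libraries was 0.30, rank 213 of 219 hairpins from the widest, where the median was 0.77. mir-33 had an SD of 1.24 and ranked 31. Shares of the members thus ranged over 27.5 points for mir-33 and 4.62 points for mir-378a.

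**Figure D3:**
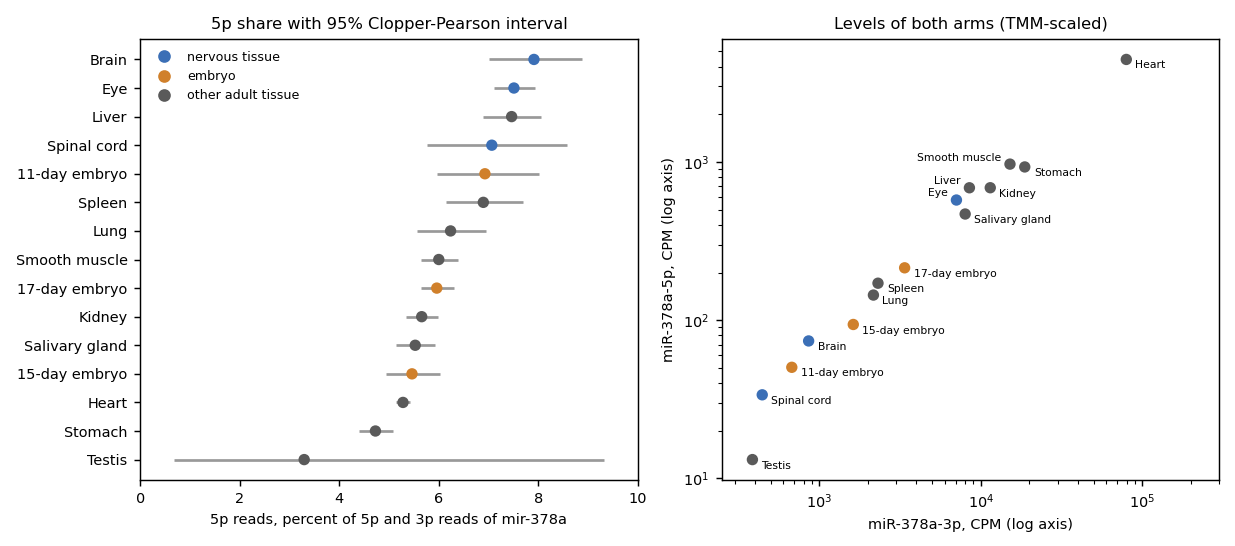
Left, the mir-378a 5p share in percent of 5p and 3p reads for each library, with 95% Clopper-Pearson intervals; right, miR-378a-5p against miR-378a-3p in TMM-scaled CPM on log axes. The share stays between 3.30% and 7.92% while miR-378a-3p spans 386 to 79594.5 CPM, and both arms rank the libraries almost alike.

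Other miR-378 names bear on these values, because miR-378c and miR-378b are near-identical to miR-378a-3p and the counting could split or share their reads. miR-378c made up 10.7% to 22.3% of the summed reads of miR-378a-3p and miR-378c, with a median of 17.3%. miR-378b made up 0.653% to 1.73% of the summed reads of miR-378a-3p and miR-378b. The split between these names is uncertain. No member had counts identical to those of another name.

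The sum of miR-103-3p and miR-107-3p was divided between them unevenly by tissue. miR-103-3p held 61.7% of their reads in kidney (interval 61.0 to 62.3), 64.6% in liver, 72.0% in salivary gland and 72.5% in heart. Brain, testis, spleen, stomach, eye, spinal cord and lung lay between 75.3% and 78.3%. The 17-day embryo lay at 81.2%, smooth muscle at 82.1%, the 15-day embryo at 84.6% and the 11-day embryo at 85.8%. By TMM kidney and liver, lowest in this share, were highest in miR-107-3p, at 5633 and 3807 CPM. Their miR-103-3p levels of 9056 and 6952 CPM ranked 3 and 8 of 15. By plain totals kidney stayed first in miR-107-3p, but liver ranked 7 at 1914 CPM. Liver then ranked 14 in miR-103-3p, at 3495 CPM.

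The miR-103-3p share averaged 83.8% ± 2.4 in embryos (SD, n = 3), 77.0% ± 1.5 in nervous tissue (SD, n = 3) and 73.3% ± 6.6 in other adult tissue (SD, n = 9). The embryos were higher than other adult tissue by 10.5 points, with 2 of 3 embryos above all 9 tissues, at a two-sided exact permutation p of 0.032. Adjusted over both comparisons this was 0.064 and missed the threshold of 0.05. On the log2 ratio, without kidney, or without smooth muscle, the adjusted p was 0.036 by the same exact permutation test. Leaving out any other single library of these classes did not bring it under the threshold. For nervous tissue the difference was 3.74 points (exact permutation p 0.36, adjusted 0.36). The smallest p that this design allows is 0.0045.

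**Figure D4:**
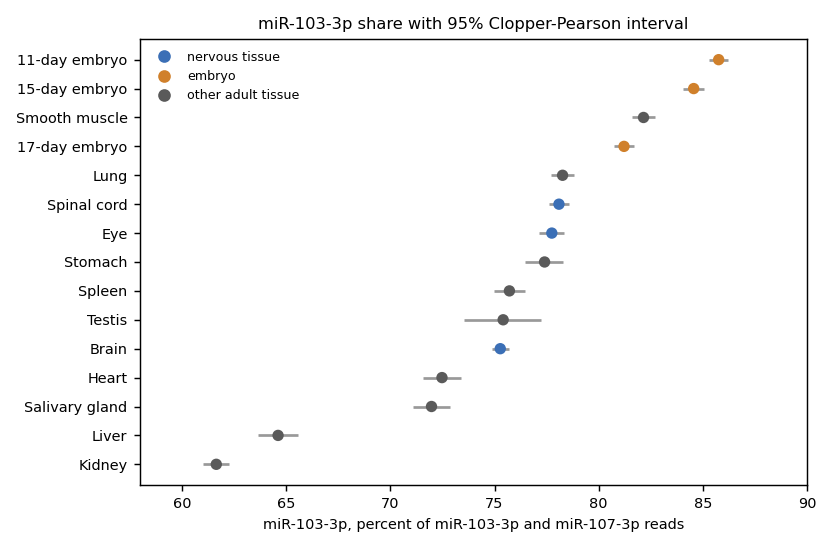
miR-103-3p reads as percent of miR-103-3p and miR-107-3p reads in each library, with 95% Clopper-Pearson intervals. Kidney (61.7%) and liver (64.6%) are lowest, and the 11-day (85.8%) and 15-day (84.6%) embryos highest, with smooth muscle (82.1%) among the embryos.

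The 5p arms of these loci were rare. miR-107-5p had 372 reads, 0.581% of mir-107 reads over all libraries. By TMM its highest levels were in kidney (72 reads, 45.8 CPM) and liver (28 reads, 32.1 CPM), as for miR-107-3p. Both miR-103 5p names together had 293 reads against 211027 of miR-103-3p, or 0.139%, with a range over libraries of 0.0494% to 0.216%. miR-103-1-5p from Pank3 accounted for 93 of the 293 reads, or 31.7%, and miR-103-2-5p from Pank2 for 200 reads. With at most 49 such reads in a library, the share of either Pank gene per tissue could not be resolved.

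In the nervous comparison of levels, no member of 6 passed the edgeR threshold, against 41.0% of the 693 names called. The log2 differences from other adult tissue were -1.98 ± 0.93 (SE) for miR-33-5p, -2.54 ± 1.38 for miR-378a-3p and -2.06 ± 1.31 for miR-378a-5p. They were 0.06 ± 0.48 for miR-33-3p, 0.07 ± 0.41 for miR-103-3p and -0.20 ± 0.44 for miR-107-3p, of which the last turned to 0.22 by plain totals. At an unadjusted p under 0.05 the count was 1 of 6, miR-33-5p (edgeR adjusted p 0.097). DESeq2 called 2 of 6, miR-33-5p (0.027) and miR-378a-3p (0.028), both lower. Of the 693 names, DESeq2 called 159 lower and 195 higher in nervous tissue. Without testis and smooth muscle miR-33-5p passed in edgeR as well, at -2.20 (adjusted p 0.043), and likewise without testis alone (adjusted p 0.042). For miR-378a-3p the class was not uniform, since eye held 7068 CPM and brain and spinal cord 860 and 444 CPM, and leaving out eye moved the log2 difference to -4.61. Leaving out heart, the library with the highest level, moved it to -1.58, and for miR-378a-5p the values without eye and without heart were -4.10 and -1.16.

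In the embryo comparison, 1 of 6 members was called, miR-107-3p, where 17.2% of names were called lower and 44.2% in either direction. It averaged 849 ± 87.4 CPM in embryos (SD, n = 3) and 2819 ± 1241 CPM in other adult tissue (SD, n = 9). Its log2 difference was -1.73 ± 0.48 (edgeR adjusted p 0.0083), and all 3 embryos lay below all 9 other adult libraries, as for 12.3% of names. By plain totals the groups overlapped and the difference was -0.41 (adjusted p 0.57), without a filter on low counts it was -1.45 (0.075) and with a stricter filter -0.91 (0.13). The range of adjusted p over these edgeR fits was therefore 0.0083 to 0.57.

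The other 5 members were not called in embryos. The log2 differences were -0.38 ± 0.83 for miR-33-5p, -1.03 ± 0.52 for miR-33-3p and -0.80 ± 0.43 for miR-103-3p, and by plain totals these 3 turned to 1.09, 0.51 and 0.56. For miR-378a-3p the value was -3.10 ± 1.43 (edgeR adjusted p 0.088) and for miR-378a-5p -2.98 ± 1.40 (0.092). DESeq2 called miR-33-3p (0.027), miR-378a-3p (0.012), miR-378a-5p (0.016), miR-103-3p (0.043) and miR-107-3p (0.00023). It also called more names in all, with 182 of the 693 lower and 194 higher in embryos. Without testis, edgeR also called miR-33-3p (adjusted p 0.047), miR-378a-3p (0.048) and miR-378a-5p (0.045). Plain totals moved the median log2 difference of all names by 1.28 in embryos and 0.47 in nervous tissue.

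**Figure D5:**
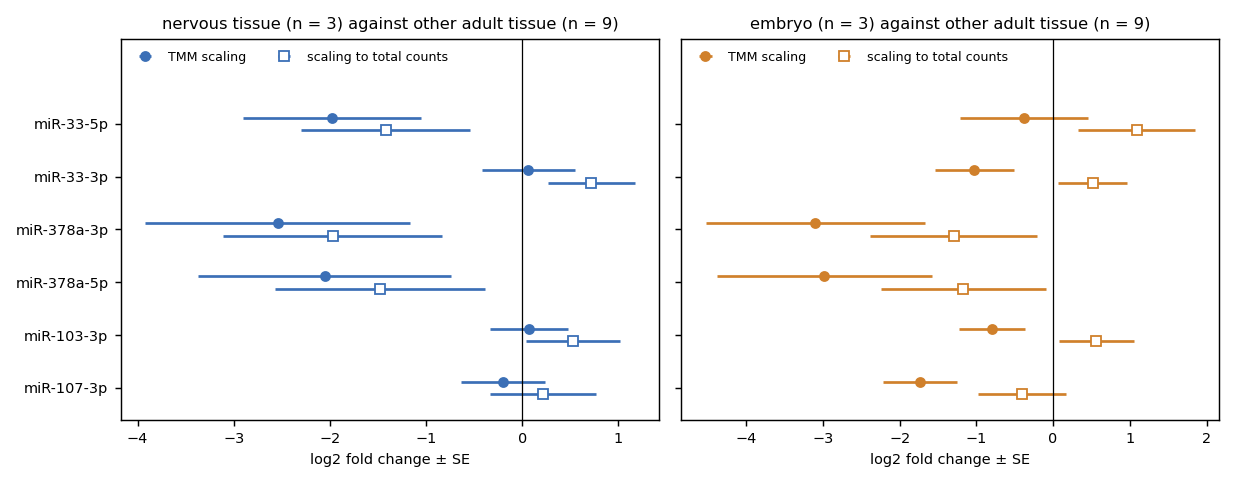
Log2 fold change with SE of each member in nervous tissue and in embryos (n = 3 each) against other adult tissue (n = 9), by TMM and by plain totals. miR-107-3p in embryos is called by TMM (-1.73) and not by plain totals (-0.41), and miR-33-5p, miR-33-3p and miR-103-3p in embryos and miR-107-3p in nervous tissue change direction between the scalings.

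Lists of related miRNAs set the members' values in context, each given as names past the edgeR threshold and the median log2 difference, beside -0.21 (nervous) and 0.10 (embryo) for all names. Of 12 miRNAs linked to cholesterol and lipid transport, 3 rose and 5 fell in nervous tissue (median -1.60). There miR-122-5p, the dominant liver miRNA, was lower by 10.89 ± 4.03 on the log2 scale (adjusted p 0.042 in edgeR). The 3 liver markers, miR-122-5p among them, summed to 34.2% of reads in liver and at most 3.53% in any other library. miR-758-3p (5.99 ± 0.98) and miR-128-3p, a brain-rich miRNA (5.22 ± 0.67), rose in nervous tissue. In embryos 1 of the 12 rose and 5 fell (median -1.84). miR-30c-5p, which acts on lipoprotein assembly, had -3.18 ± 0.68 and miR-27a-3p -2.86 ± 0.79, and by plain totals 3 rose and 1 fell. Of all names, 28.4% rose and 12.6% fell in nervous tissue, and 27.0% rose and 17.2% fell in embryos. By plain totals 287 of the 693 names rose and 42 fell in embryos, and the median of all names was 1.38. In nervous tissue that median was 0.26. DESeq2 called 195 names higher and 159 lower in nervous tissue (median -0.03), and 194 and 182 in embryos (median 0.33).

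Of 12 miRNAs linked to insulin and glucose, 1 fell in nervous tissue, miR-143-3p (-3.31 ± 0.93), a miRNA rich in smooth muscle (median -0.46, or 0.11 by plain totals), and 7 fell in embryos (median -4.11). The largest of these were the miR-29 family, which targets collagens: miR-29a-3p had -6.38 ± 0.73, miR-29b-3p -6.22 ± 0.85 and miR-29c-3p -5.70 ± 0.86. By plain totals 6 of the 12 fell in embryos and none rose. Of 11 measured miRNAs linked to mitochondria, oxidative fibres and brown fat, edgeR called 0 in nervous tissue, with 4 at an unadjusted p under 0.05, and DESeq2 called 3 lower and 1 higher (edgeR median -1.72, DESeq2 median 0.78). In embryos miR-494-3p (4.95 ± 0.55) and miR-181c-5p (1.68 ± 0.50) rose and miR-365-3p fell (-2.22 ± 0.79; median of the 11 -0.47). By plain totals 3 of the 11 rose and none fell, and the median turned to 1.07, as it did to 0.998 in DESeq2.

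The miR-15 and miR-107 group, 7 miRNAs whose 5' ends resemble that of miR-107-3p, had 5 names lower in nervous tissue (median -2.03), among them miR-322-5p (-2.97 ± 0.85), miR-15b-5p (-2.70 ± 0.64) and miR-503-5p (-2.55 ± 0.93). Neither miR-103-3p nor miR-107-3p was called there. In embryos 5 fell and 1 rose (median -1.80), with miR-195a-5p at -4.61 ± 0.72, miR-497a-5p at -3.67 ± 0.58 and miR-503-5p, the one that rose, at 3.96 ± 0.72. By plain totals 2 fell and 2 rose in embryos. Of 20 other miRNAs in introns of protein-coding genes, 5 rose and 5 fell in nervous tissue (median -0.42). DESeq2 gave 4 and 9 (median 0.39), and the median was 0.08 by plain totals. The largest differences were those of miR-208a-3p of a cardiac myosin gene (-11.14 ± 4.10) and miR-211-5p (8.96 ± 1.68). The 5 striated muscle markers, miR-208a-3p among them, summed to 30.1% of reads in heart, against 0.736% or less in the rest of its class. Of the 20, 3 rose and 5 fell in embryos (median -0.05, or 0.18 in DESeq2 and 1.41 by plain totals). The names rising most were miR-483-3p of Igf2 (8.46 ± 0.74), miR-153-3p (3.63 ± 0.81) and miR-335-5p of Mest (3.31 ± 0.76). By plain totals 8 of the 20 rose in embryos and none fell, beside 287 and 42 of all 693 names. The 4 tested miR-378 names, which include both members, gave no edgeR call in either comparison (medians -2.37 and -3.04), with 0 (nervous) and 3 (embryo) at an unadjusted p under 0.05, against 2 and 4 called by DESeq2.

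The names with the most similar profiles differed by member, as Pearson r of log2 CPM over the 15 libraries. miR-33-5p was closest to miR-21a-3p (0.89), miR-223-5p (0.78) and miR-142a-3p (0.74), of which the last belongs to the leukocyte markers. miR-33-3p was closest to miR-222-5p (0.81), miR-664-5p (0.80) and miR-671-3p (0.78). By plain totals these 3 had an r of 0.65, 0.44 and 0.70, at ranks 10, 150 and 5, so the names closest to miR-33-3p depend on the scaling. miR-378a-3p was closest to miR-378c (0.99) and miR-378b (0.98), which may share reads with it, and to miR-28a-5p (0.86), and miR-378a-5p to the same 3 names. miR-103-3p was closest to miR-877-3p (0.75), miR-29b-1-5p (0.69) and miR-29b-2-5p (0.69), and miR-107-3p to miR-29b-1-5p (0.88), miR-30c-5p (0.84) and let-7b-5p (0.82). With plain totals the r of miR-103-3p was 0.88, -0.0032 and 0.21 with its 3 names in that order. For miR-107-3p it was 0.46, 0.48 and 0.32, and for miR-33-5p 0.81, 0.73 and 0.66. The r with miR-28a-5p was then 0.665 for miR-378a-3p and 0.612 for miR-378a-5p. All points share the libraries, their depth and their scaling.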

How the data were processed

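The deposited files hold raw read counts per mature miRNA name, 1 file per library. Per the submitters' processing notes, the tools were bcl2fastq 1.8.4, cutadapt, BWA and bedtools and the build mm10. Their options, the annotation and how multi-mapping reads were treated are items not given in the sources used here. A name missing from a library's list was taken as 0. The members and lists were chosen with earlier results of these data known.

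Counts were tested by edgeR 4.0.16 quasi-likelihood fits in R 4.3.3 (TMM scaling, filterByExpr, 693 names, all 15 libraries, Benjamini-Hochberg threshold 0.05). The filter removed 13.1% of testis reads and at most 0.215% elsewhere. For arm usage the fit took the 5p and 3p counts of 238 hairpins (20 or more reads in 8 or more libraries), with each library as a term and arm by class as the tested interaction. The miR-103-3p share was tested by exact permutation over 220 splits, adjusted over 2 comparisons. Alternatives were DESeq2 1.42.0, limma 3.58.1 on log2 ratios (pseudocount 0.5), scaling to total counts (plain totals), other filters, and leaving out libraries. Scripts were tested on simulated data. Intervals are exact 95% Poisson or Clopper-Pearson and cover counting error only, since PCR reads are not independent molecules. The most alike libraries, the 15- and 17-day embryos, differed by a chi-square of 248 per degree of freedom over 651 names, so none was counted as a duplicate. Besides the members, named miRNAs were those of the same loci or seed, the 3 most correlated with each member, and up to 3 per list and comparison with the largest called change.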

Additional observations from a re-analysis of the deposited data

Results flagged for a closer look

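Of 9 values checked among the 9 other adult libraries, 3 had 1 library apart from the rest, where the gap to the nearest library exceeded 0.493 of the whole range. That limit flags about 1 in 20 groups of normally distributed values. The flagged values are CPM without a log scale, compared across unlike tissues, so that rate need not hold for them. Both miR-378a arms come from 1 hairpin, and their log2 levels had a Pearson r of 0.989, so their flags are not separate. miR-378a-3p was 79594.5 CPM in heart against 18716 CPM in stomach, the next highest. miR-378a-5p was 4439.57 CPM in heart against 968 CPM in smooth muscle. miR-103-3p was 14874.5 CPM by TMM in smooth muscle against 9056 CPM in kidney. By plain totals smooth muscle was not highest, at 8482 CPM against 11043 CPM in testis and 9910 CPM in kidney. The smooth muscle library is the one whose gut and kidney epithelium markers made up 27.9% of reads.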

How the results depend on the processing

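No paired analysis was possible because the labels give no replicate numbers and each tissue has 1 library. Counts of called names stayed within 1.5 times of the main count under most alternatives. With at least 50 reads in 8 libraries, 140 names were called for embryo and 121 for nervous, against 306 and 284. limma on log2 ratios called 18 hairpins for embryo against 47. The log2 ratio gave 0.90 for the miR-103-3p share in embryos. Leaving out 1 library gave 255 to 343 embryo calls, 186 (without brain) to 303 nervous calls, 26 (without the 15-day embryo) to 49 embryo arm calls and 4 (without spinal cord) to 28 (without stomach) nervous arm calls. The miR-103-3p share difference then ran from 9.09 to 11.9 points (embryo) and 2.29 to 4.85 points (nervous).

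Direction turned for the following values, among them miR-33-3p (-1.03) and miR-103-3p (-0.80) in embryos. By total counts the embryo values were 1.09 (miR-33-5p), 0.51 (miR-33-3p) and 0.56 (miR-103-3p), and the nervous value of miR-107-3p 0.22. With at least 50 reads in 8 libraries they were 0.57 (miR-33-5p, embryo), 0.012 (miR-103-3p, embryo) and 0.20 (miR-107-3p, nervous), and with no filter 0.032 (miR-107-3p, nervous). With only the 12 libraries of both classes the nervous values were -0.0077 (miR-33-3p) and -0.021 (miR-103-3p), and without testis and smooth muscle -0.032 (miR-33-3p). Without 1 library the values ran from -0.86 to 0.050 (miR-33-5p, embryo), -0.25 to 0.22 (miR-33-3p, nervous), -0.11 to 0.25 (miR-103-3p, nervous) and -0.024 to 0.16 (mir-378a arm usage, embryo). The cause was not tested. Depth limits testis most, with 7 reads of miR-33-5p, 2 of miR-33-3p and 3 of miR-378a-5p.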
